A study of Drosophila melanogaster with 8 samples.

Results

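The genes described here are 37 cell cycle and DNA replication genes of Drosophila melanogaster, chosen by exact symbol for their known function: cyclins and their kinases, the E2F/Rbf pathway, replication licensing and S-phase genes, and mitotic regulators. They were written as 3 groups: G1/S (9 symbols), replication (16) and mitosis (12). Of these, 36 were in the count tables of 14161 genes. The symbol fzr was not found, and the gene listed under its older symbol rap (9.43 to 12.3 CPM, counts scaled to a common library total) was not added. All 36 passed the filter on low counts, as did 8029 genes in all. The data are mRNA sequencing of 8 libraries of S2R+ cells, a cultured Drosophila line of hemocyte-like embryonic origin. All were transfected with dCas9-VPR, a nuclease-dead Cas9 fused to transcriptional activators and driven by an Actin promoter, together with guide RNAs. There were 4 groups of 2 libraries. Cells of the first received a pool of 5 guides to the gene of the mesoderm transcription factor Twist, those of the second a pool of 5 guides to the gene of the zinc finger repressor Snail, and those of the third both pools. The controls received guides that the sample labels place at a luciferase reporter promoter and that the series design calls non-targeting. All groups, controls included, therefore carried dCas9-VPR and guides, the series gives the libraries as biological replicates, and untransfected cells in a pool cannot be told apart from transfected ones.

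Before DNA replication, the origin recognition complex (ORC) and Dup, the fly Cdt1, load the MCM helicase on origins, and Geminin blocks Dup until the next cycle. Entry into S phase is driven by Cyclin E with Cdk2 (cdc2c in these tables) and by E2F with its partner Dp, and is held back by Rbf and by the Cdk inhibitor Dacapo. Cyclins A, B and B3 with Cdk1 (cdc2), switched on by the phosphatase String, drive mitosis, and Fizzy activates the ubiquitin ligase that ends it. RNA levels of many of these genes follow the share of cells in each phase, so in such bulk samples fewer cells in a phase and less RNA per cell cannot be told apart.

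Total counts per library ranged from 10752993 to 13351166. The targets followed the labels. twi stood at 26.3 and 28.2 CPM with Twist guides and at 13.7 and 12.7 CPM with both pools, with 0 counts in the Snail guide and control libraries. sna stood at 97.2 and 102 CPM with Snail guides and at 124 and 122 CPM with both pools, against at most 0.19 CPM in the Twist guide and control libraries. Among hemocyte markers, srp, Pxn, crq and ush were expressed, whereas Hml, He, eater and Nplp2 did not exceed 1.76 CPM. The control libraries lay farther apart than other replicates. Over all tested genes the variance between replicates was 3.54 times the counting variance in libraries of both pools, 6.88 times in those of Twist guides and 3.91 times in those of Snail guides, against 25.1 times in control. Over the 36 cell cycle genes these ratios were 6.47 in libraries of both pools, 2.99 in those of Twist guides and 4.42 in those of Snail guides, against 9.80 in control.

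Per kilobase of the longest annotated transcript, mus209, which encodes the sliding clamp PCNA, was the highest of these genes at a mean of 369 CPM per kb over the 8 libraries. RnrS, the small subunit of ribonucleotide reductase, followed at 337, then CycB at 155 and polo, a mitotic kinase, at 127 CPM per kb. The lowest were cort, a meiotic relative of Fizzy, at 2.49, Orc2 at 5.27, cdc2c at 8.05 and Orc5 at 8.44 CPM per kb. Over the 8 libraries mus209 and RnrS thus stood far above Orc2 and Orc5, subunits of the origin complex. Levels varied little across libraries: the highest library was 1.10 times the lowest for Bub1, a spindle checkpoint kinase, and 1.93 times for stg, which encodes String and varied most. The median standard deviation of log2 CPM over the 8 libraries was 0.0854 for the G1/S genes, 0.146 for the replication genes and 0.119 for the mitosis genes, beside 0.134 for all tested genes.

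**Figure D1:**
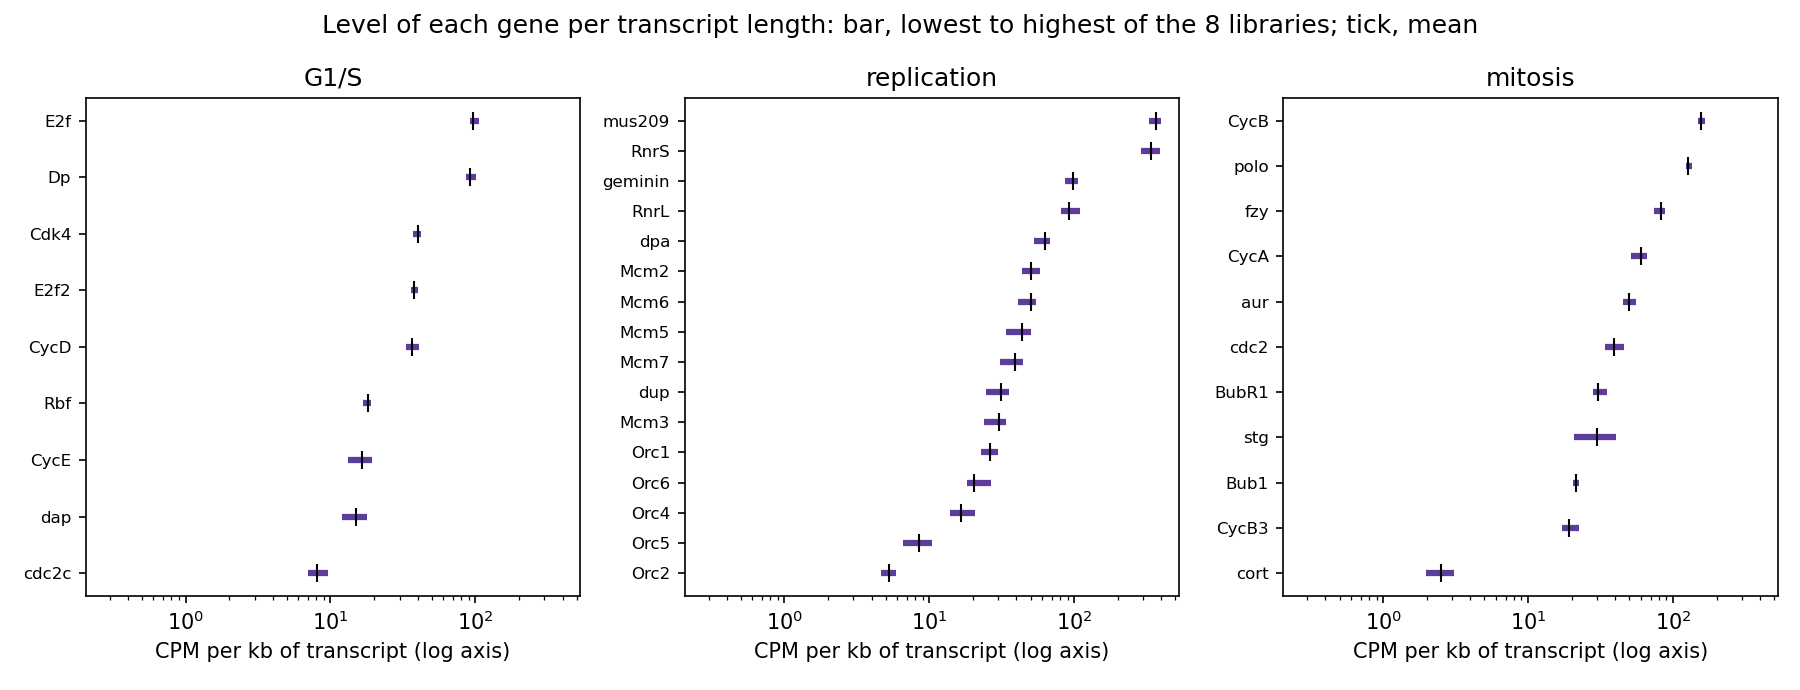
Level of each cell cycle gene in CPM per kb of its longest transcript (log axis), in 3 panels by group. Bars run from the lowest to the highest of the 8 libraries and ticks mark the mean; mus209 is the highest at 369 CPM per kb and cort the lowest at 2.49 CPM per kb.

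No cell cycle gene passed the test in any comparison. With edgeR's quasi-likelihood test on all 8 libraries and Benjamini-Hochberg adjustment over all tested genes at 0.05, 0 of 36 were called with Twist guides against control, where 0.934% of all tested genes were. The same held with Snail guides against control (0.324% of all genes) and with both pools against control (1.57%). It held too with Twist guides against Snail guides (1.08%), both pools against Twist guides (1.05%), both pools against Snail guides (0.909%) and the interaction (0.174%). The interaction is the log2 fold change with both pools minus the sum of those with each pool alone. At an unadjusted p under 0.05 there were 10 of the 36 with both pools against control (16.5% of all genes), 1 with Twist guides (8.28%) and 5 with Snail guides (14%). There were 0 with Twist guides against Snail guides (11.9%), 14 with both pools against Twist guides (18.2%), 17 with both pools against Snail guides (18.4%) and 13 in the interaction (14.6%). DESeq2 called 2 in all, stg with both pools against Twist guides (adjusted p = 0.002; 2.05% of all genes) and Mcm3 with both pools against Snail guides (adjusted p = 0.0397; 2.38%). The comparisons share libraries, so their counts are not separate pieces of evidence.

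None of the 16 replication genes passed the test, but most had lower levels with both pools. Of the 16, 8 had both libraries with both pools below all 6 other libraries, a pattern seen in 11% of all tested genes: Mcm3, Mcm5, Mcm6, Mcm7, dpa, Orc4, Orc5 and geminin. The median log2 fold change of the 16 was -0.28 against Snail guides, -0.24 against Twist guides and -0.17 against control, beside medians of all tested genes of -0.0049, 0.0082 and -0.0063. All 16 were below 0 against Snail guides and against Twist guides, and 13 of 16 against control, whereas 49.1%, 51.6% and 48.6% of all genes were above 0. Libraries did not overlap and were lower with both pools for 15 of 16 against Snail guides (30.4% of all genes), for 13 against Twist guides (29%) and for 8 against control (22.2%). At an unadjusted p under 0.05, 12 were lower against Snail guides (7.87% of all genes), 10 against Twist guides (9.38%) and 6 against control (7.93%).

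By library, the median of the 16 replication genes over their mean in control stood at -0.083 and -0.25 (log2) with both pools. It stood at 0.024 and 0.087 with Twist guides, at 0.14 and 0.089 with Snail guides, and at -0.0082 and 0.0081 in the control libraries. Both libraries with both pools were thus below every other library, and replicate 2 was the lower. That replicate held the lowest level of all 8 libraries for 13 of 16 replication genes, against 16.7% of all tested genes. It was below replicate 1 for 15 of 16, by a median of 0.14. Without it the median was -0.19 against Snail guides, -0.17 against Twist guides and -0.082 against control. Without replicate 1 the medians were -0.36, -0.29 and -0.25.

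**Figure D2:**
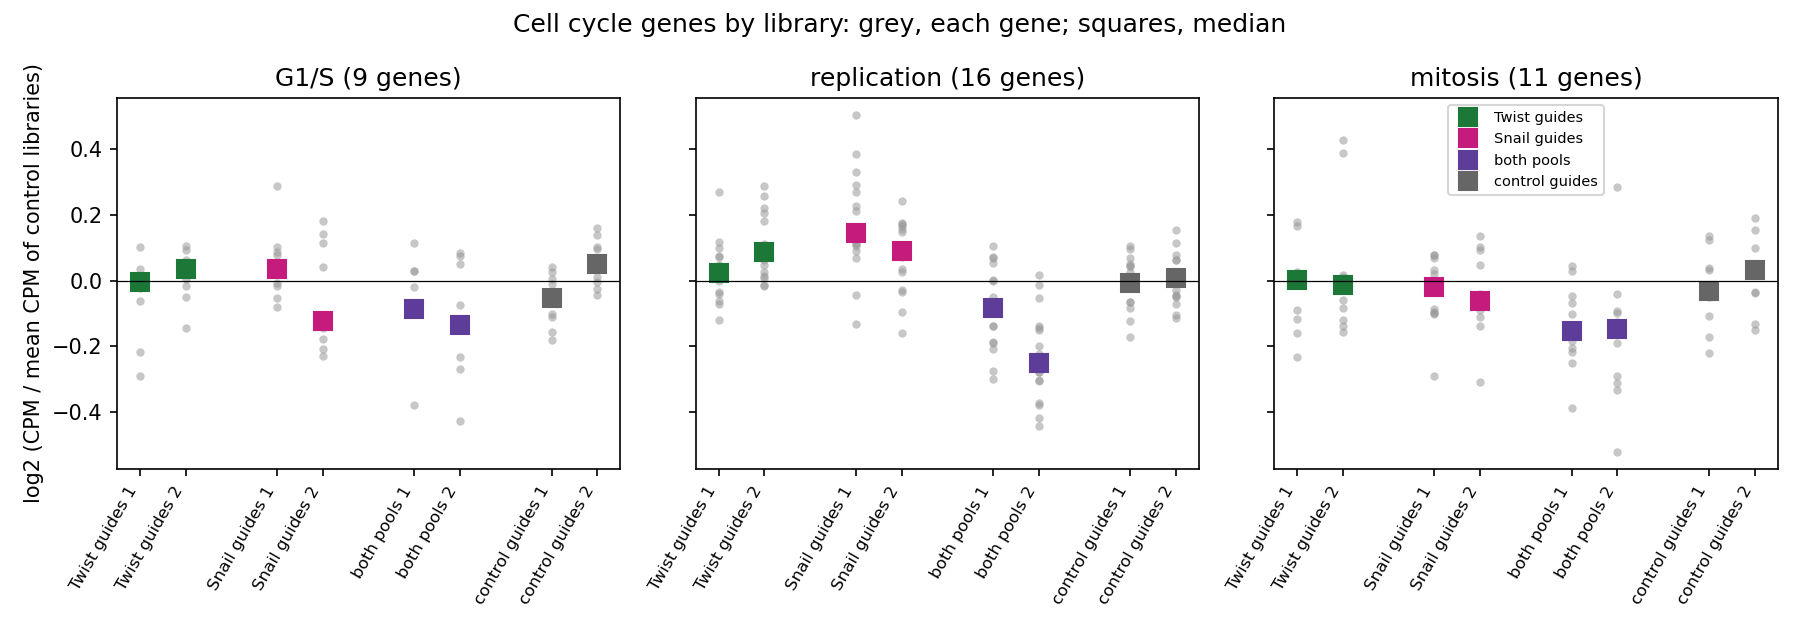
Each cell cycle gene (grey) and the median of its group (squares) in each library, as log2 of CPM over the mean CPM of the control libraries, for the G1/S, replication and mitosis genes. The replication medians with both pools, -0.083 and -0.25, are below those of the other 6 libraries.

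Within the MCM helicase, 5 of 6 subunits (Mcm3, Mcm5, Mcm6, Mcm7 and dpa, the fly Mcm4) had both libraries with both pools below the other 6, and Mcm2 did not. Mcm3 (X, 5323855 to 5326738 in BDGP6.54) stood at 73.8 and 65.9 CPM with both pools, 81.8 and 85.9 CPM with Twist guides, 92.5 and 91.4 CPM with Snail guides, and 89.5 and 81.3 CPM in control. The both-pool libraries were the lowest and the Snail guide libraries the highest of the 8. The log2 fold change of Mcm3 with both pools was -0.40 ± 0.088 (SE) against Snail guides (edgeR adjusted p = 0.0548), -0.26 ± 0.088 against Twist guides (0.144) and -0.29 ± 0.088 against control (0.132).

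Mcm7 (3L, 8891596 to 8894310) stood at 83.3 and 75.6 CPM with both pools, 94.5 and 107 CPM with Twist guides, 108 and 96.1 CPM with Snail guides, and 96.9 and 109 CPM in control. Its levels with Twist guides, Snail guides and control overlapped, and only those with both pools lay apart. With both pools its log2 fold change was -0.37 ± 0.10 against control (edgeR adjusted p = 0.0899), the smallest p of the cell cycle genes in that comparison. It was -0.34 ± 0.10 against Twist guides (0.106) and -0.36 ± 0.10 against Snail guides (0.0964). An antisense RNA covers 81.7% of its exon bases and has no entry of its own in the tables, and the strand setting of the counts is not given, so reads of the pair cannot be told apart.

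Mcm5 (3R, 10788524 to 10791150) stood at 97.6 and 83.3 CPM with both pools, 106 and 120 CPM with Twist guides, 123 and 109 CPM with Snail guides, and 111 and 112 CPM in control. Its log2 fold change with both pools was -0.36 ± 0.10 against Snail guides (edgeR adjusted p = 0.0973), -0.32 ± 0.10 against Twist guides (0.121) and -0.30 ± 0.10 against control (0.17). Mcm2 differed in pattern, at 150 and 126 CPM with both pools, 146 and 143 CPM with Twist guides, 167 and 154 CPM with Snail guides, and 147 and 142 CPM in control. For Mcm2 only the Snail guide libraries lay apart, above the other 6, a pattern of 7.05% of all tested genes.

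**Figure D3:**
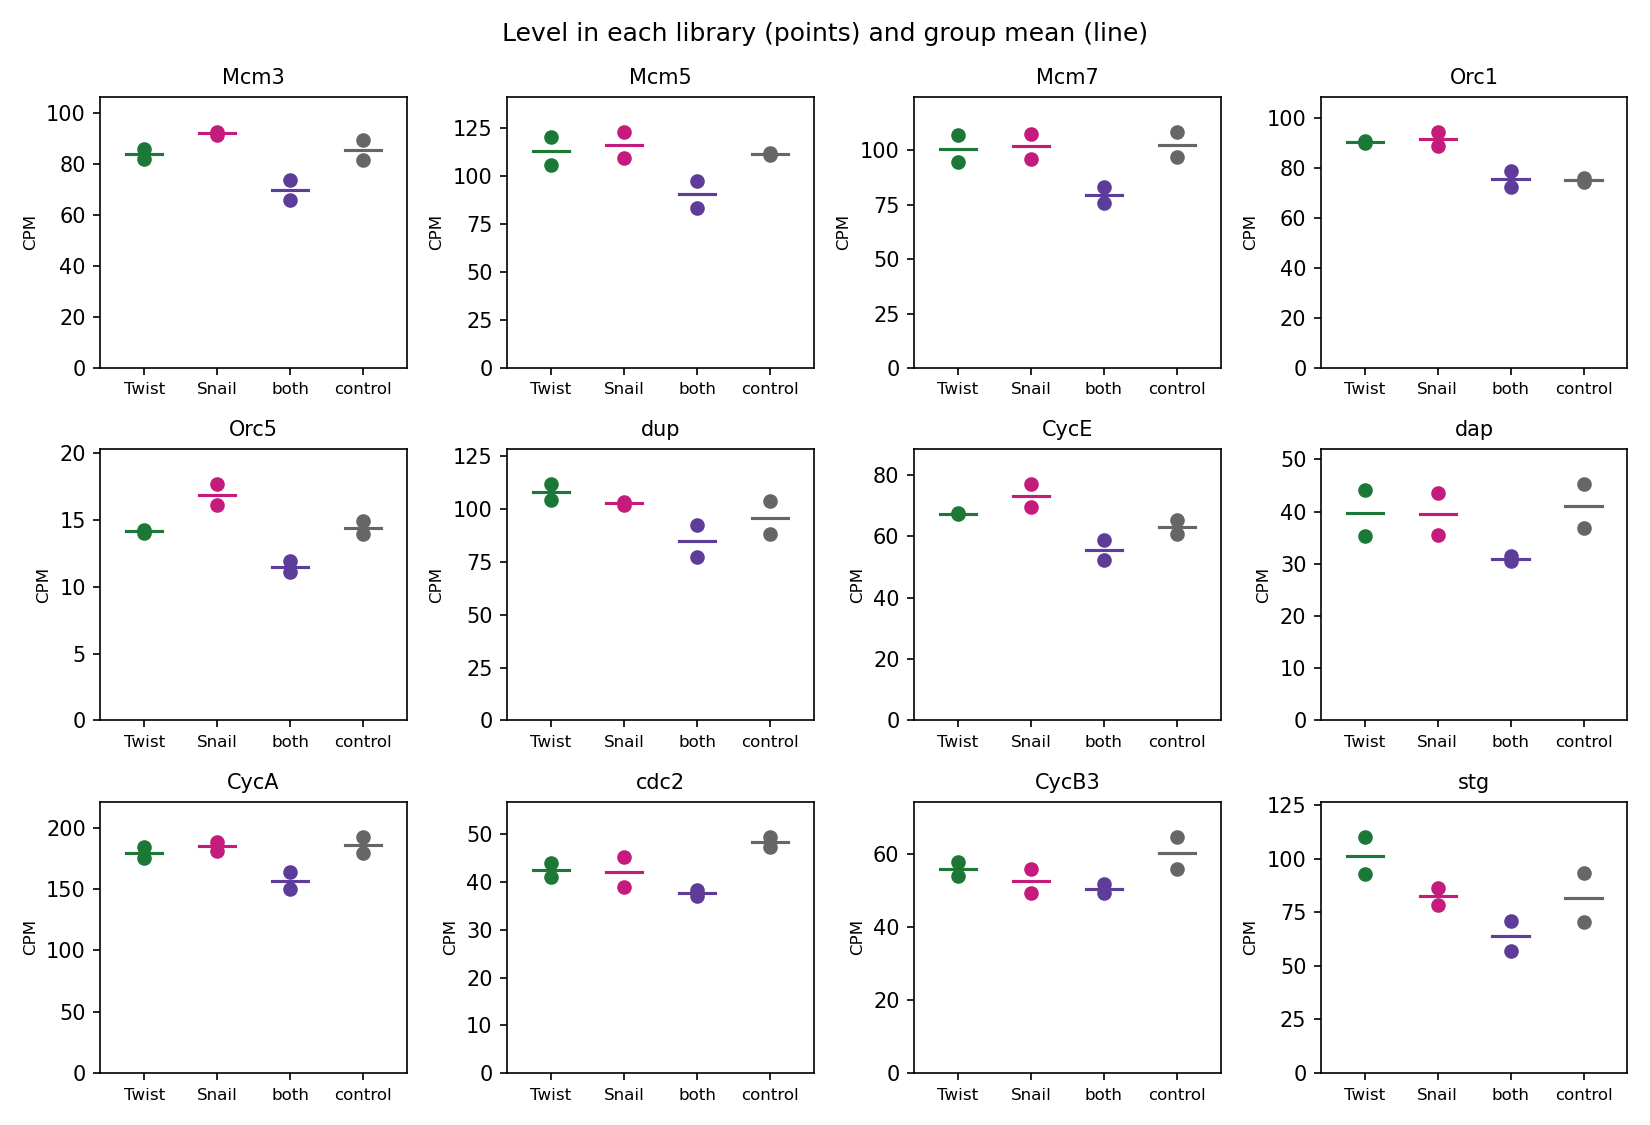
Level in CPM (linear axis from 0) of 12 cell cycle genes in the libraries with Twist guides, Snail guides, both pools and control guides. Points are libraries and lines group means of 2; both points with both pools are the lowest for Mcm3, Mcm5, Mcm7, Orc5, CycE, dap, CycA and cdc2.

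Of the ORC genes, Orc1, the large ATPase subunit, had the smallest p of the cell cycle genes in both comparisons of a single pool with control. Orc1 (2R, 7522437 to 7525716) stood at 78.8 and 72.3 CPM with both pools, at 90.5 and 89.7 CPM with Twist guides, at 94.3 and 88.7 CPM with Snail guides, and at 74.1 and 75.8 CPM in control. The libraries with a single pool were above the other 4, and those with both pools spanned the control range. Its log2 fold change against control was 0.27 ± 0.081 with Twist guides (edgeR adjusted p = 0.268), 0.29 ± 0.082 with Snail guides (0.178) and 0.012 ± 0.082 with both pools (0.968). Its interaction was -0.54 ± 0.12 (0.0916).

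Orc5 (2L, 13829837 to 13831576) stood at 11.9 and 11.1 CPM with both pools, 14.0 and 14.3 CPM with Twist guides, 17.7 and 16.1 CPM with Snail guides, and 14.9 and 13.9 CPM in control. Libraries with both pools were the lowest and those with Snail guides the highest. Orc5 was singled out after its values were seen: its log2 fold change with both pools against Snail guides, -0.55 ± 0.13 (edgeR adjusted p = 0.0619), was the farthest from 0 of the replication genes. Orc4 showed 22.3 and 23.0 CPM with both pools and 33.2 and 28.5 CPM with Snail guides (-0.44 ± 0.12, adjusted p = 0.0888). Orc6 stood at 25.9 and 20.2 CPM with Snail guides, against 18.8 and 17.6 CPM in control (0.34 ± 0.13, adjusted p = 0.292). Orc2, the least expressed, stood between 9.25 and 11.8 CPM in all 8 libraries.

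The loader dup and its inhibitor geminin both had their Twist guide libraries above the other 6, as 4.35% of all tested genes did. For dup this was a near tie, at 103.98 CPM in Twist guide replicate 1 against 103.59 CPM in control replicate 2. dup, also singled out after its values were seen, stood at 92.4 and 77.4 CPM with both pools, 104 and 112 CPM with Twist guides, 103 and 102 CPM with Snail guides, and 87.9 and 104 CPM in control. Its libraries with both pools overlapped those of control but not those of either single pool. With both pools its log2 fold change was -0.34 ± 0.10 against Twist guides (edgeR adjusted p = 0.117). geminin stood at 97.3 and 91.9 CPM with both pools, below all other libraries, and at 113 and 109 CPM with Twist guides. mus209 and RnrS, the most expressed of the group, differed less between both pools and control (-0.067 ± 0.079 for mus209 and -0.073 ± 0.091 for RnrS). RnrS was highest with Snail guides, at 622 and 582 CPM, against 555 and 477 CPM in control (0.22 ± 0.091, adjusted p = 0.308). RnrL, the large subunit, did not follow it: it stood at 231 and 227 CPM with Snail guides, against 225 and 282 CPM in control.

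With a single pool, the replication genes were at or slightly above control. Against control, 13 of 16 were above 0 with Snail guides, with a median of 0.10, and 12 of 16 with Twist guides, with a median of 0.052, beside 50.1% and 47.1% of all genes. Libraries did not overlap and were higher for 10 of 16 with Snail guides, beside 21.5% of all genes, and for 6 with Twist guides, beside 15.2%. At an unadjusted p under 0.05, 4 were higher with Snail guides (Orc1, Orc4, Orc6 and RnrS; 5.82% of all genes). With Twist guides Orc1 alone was (4.61%). The interaction was below 0 for all 16, with a median of -0.35 and a range of -0.57 to -0.050. The median of all genes was 0.0045, and 50.8% of all genes were above 0. Of the 16, 11 had an unadjusted p under 0.05 below 0, beside 7.05% of all genes. With Twist guides against Snail guides the median was -0.036, and 0 of 16 had an unadjusted p under 0.05.

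The number of calls depended on the control libraries even where their levels did not enter the comparison. Both pools against Snail guides compares 4 other libraries. Leaving out a control library alters the estimate of spread and also which genes pass the filter (8232 and 8200 tested, against 8029). The fit of only the groups compared (7885 tested) leaves out both control libraries and also those of the other single pool. The part of each of these was not tested. In that comparison edgeR called 0 of 36 with both control libraries in the fit. It called 14 without control replicate 1 (4.58% of all genes were called lower) and 14 without control replicate 2 (4.52%). It called 16 with only the groups compared (6.73%), of which 11 were replication genes. All of these were lower with both pools, and the fold changes were almost the same. That of Mcm3 was -0.40 in each fit with 1 control library left out and -0.39 with only the groups compared. Both pools against Twist guides gave 9, 9 and 8 calls in the same order (6.21%, 6.21% and 4.79% of all genes were called lower). Against control, where the control levels do enter, both pools gave 7 calls without control replicate 1 (CycA, CycB3, Mcm7, RnrL, cdc2, dap and stg; 8.28%). They gave 2 other calls without control replicate 2 (Mcm3 and aur; 1.66%). These 2 sets have no gene in common. Snail guides against control gave 6 calls without control replicate 1, with Orc1, Orc4 and RnrS higher and BubR1, CycB3 and RnrL lower (17.5% of all genes were called). They gave 0 without control replicate 2. The interaction gave 7 calls without control replicate 1 and 4 without control replicate 2, all below 0 (3.3% and 2.6% of all genes).

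**Figure D4:**
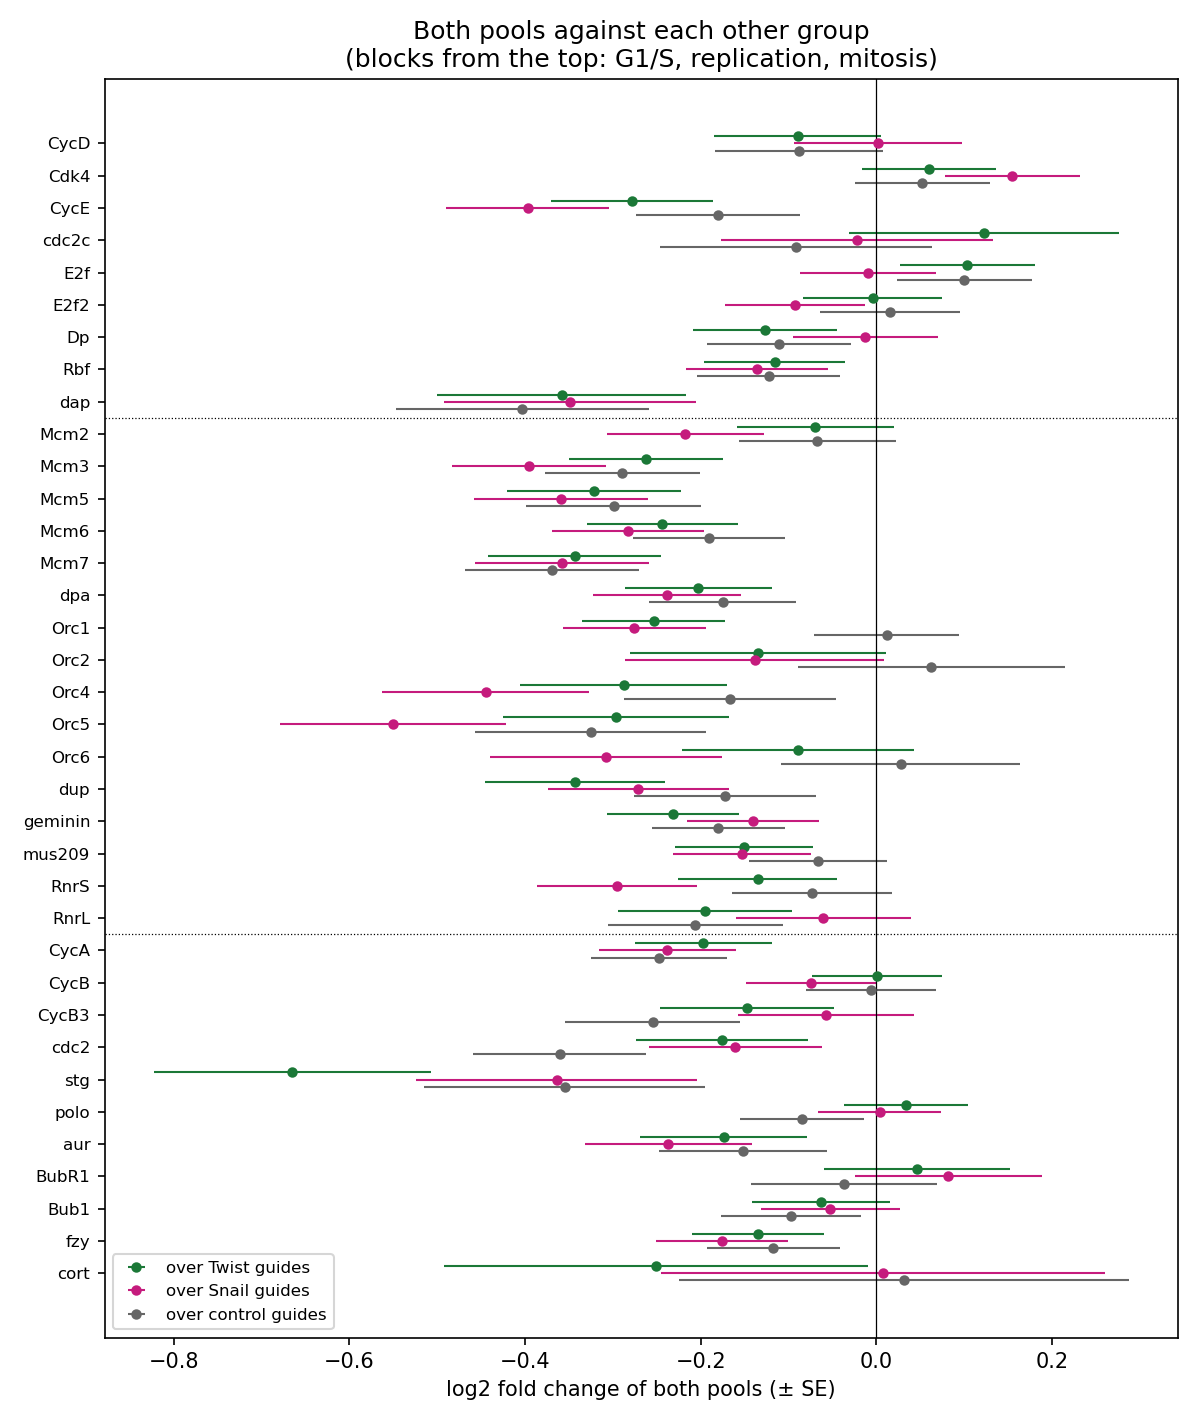
Log2 fold change with both pools (± SE) of each cell cycle gene over Twist guides, Snail guides and control guides. Dotted lines separate the G1/S, replication and mitosis genes; all 16 replication genes are below 0 over Twist guides and over Snail guides, whereas G1/S genes are on both sides.

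The G1/S genes lay on both sides of 0 in each comparison. With both pools 7 of 9 were below 0 against Snail guides, 6 against Twist guides and 6 against control. Of all genes 49.1%, 51.6% and 48.6% were above 0 in these comparisons. Of the 9, 3 (CycE, Rbf and dap) had both libraries with both pools below the other 6, beside 11% of all tested genes. Against control the median log2 fold change of the G1/S genes was -0.092 with both pools, -0.0035 with Twist guides alone and -0.055 with Snail guides alone. With both pools it was -0.022 against Snail guides and -0.089 against Twist guides. CycE and dap, which act in opposite senses on Cdk2, were both lowest with both pools. CycE (2L, 15727581 to 15748150) stood at 58.8 and 52.1 CPM with both pools, 67.5 and 67.1 CPM with Twist guides, 76.8 and 69.4 CPM with Snail guides, and 60.6 and 65.2 CPM in control. Its Snail guide libraries were the highest and its both-pool libraries the lowest. The log2 fold change of CycE with both pools was -0.40 ± 0.093 against Snail guides (edgeR adjusted p = 0.0619), -0.28 ± 0.092 against Twist guides (0.142) and -0.18 ± 0.093 against control (0.355).

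dap, the Cdk inhibitor Dacapo, stood at 31.5 and 30.5 CPM with both pools, 35.3 and 44.2 CPM with Twist guides, 43.6 and 35.5 CPM with Snail guides, and 36.8 and 45.2 CPM in control. Its libraries with both pools agreed closely and were the lowest, while replicates of each other group differed widely. Its log2 fold change with both pools against control was -0.40 ± 0.14 (edgeR adjusted p = 0.206). Rbf, the retinoblastoma homologue, was also lowest with both pools, at 62.9 and 61.1 CPM, against 67.1 and 67.9 CPM in control (-0.12 ± 0.081, adjusted p = 0.482). E2f, the activator E2F1, was higher, at 483 and 472 CPM with both pools, against 454 and 437 CPM in control (0.10 ± 0.077, adjusted p = 0.552). Cdk4, the partner of Cyclin D, was the one cell cycle gene with both both-pool libraries above the other 6, at 83.4 and 86.0 CPM, against 82.0 and 81.4 CPM in control. That pattern was seen in 9.35% of all tested genes. CycD, cdc2c, E2f2 and Dp had log2 fold changes against control between -0.21 and 0.11 in the 3 groups. Opposite-strand neighbours share 43.9% of the exon bases of cdc2c and 19.9% of those of E2f2. These neighbours have entries of their own in the tables. How reads of the shared bases were assigned is not given. In all, 17 of the 36 genes share exon bases with an opposite-strand gene, and 3 of them, Mcm7 included, share 10% or more.

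Of the 11 mitosis genes, 10 were below 0 with both pools against control, with a median of -0.12, and 3 of them (CycA, CycB3 and cdc2) had an unadjusted p under 0.05, beside 7.93% of all genes. Libraries did not overlap and were lower for 6 of 11 in that comparison, beside 22.2% of all genes. Of the 11, 4 (CycA, cdc2, fzy and Bub1) had both libraries with both pools below the other 6, beside 11% of all tested genes. cdc2, the mitotic kinase Cdk1 (2L, 10384739 to 10386262), stood at 37.0 and 38.4 CPM with both pools, 41.2 and 44.0 CPM with Twist guides, 45.3 and 39.0 CPM with Snail guides, and 47.4 and 49.5 CPM in control. Both control libraries were above the other 6, as in 4.35% of all tested genes, and both libraries with both pools were below the rest. Against control the log2 fold change of cdc2 was -0.36 ± 0.10 with both pools (edgeR adjusted p = 0.0942), -0.18 ± 0.10 with Twist guides (0.668) and -0.20 ± 0.10 with Snail guides (0.381).

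CycA (3L, 11826719 to 11833578), a cyclin of S phase and mitosis, stood at 164 and 150 CPM with both pools, 175 and 184 CPM with Twist guides, 189 and 181 CPM with Snail guides, and 180 and 193 CPM in control. Only the libraries with both pools lay apart (-0.25 ± 0.078 against control, edgeR adjusted p = 0.144). CycB3 stood at 51.8 and 49.3 CPM with both pools, against 56.0 and 64.7 CPM in control (-0.25 ± 0.10, adjusted p = 0.237). CycB, which like CycA and CycB3 pairs with Cdk1, was close to even, at 413 and 394 CPM with both pools, against 415 and 395 CPM in control (-0.0058 ± 0.074, adjusted p = 0.981).

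stg (3R, 29251826 to 29255800), the Cdc25 phosphatase String, stood at 71.0 and 57.0 CPM with both pools, 92.8 and 110 CPM with Twist guides, 86.6 and 78.4 CPM with Snail guides, and 70.3 and 93.6 CPM in control. The control libraries spanned nearly the whole range between the both-pool and the Twist guide libraries. Its log2 fold change with both pools against Twist guides was -0.66 ± 0.16 (edgeR adjusted p = 0.0901, DESeq2 adjusted p = 0.002), the farthest from 0 of all 36 genes in the 6 comparisons of 1 group with another. Against control it was -0.35 ± 0.16 with both pools (edgeR adjusted p = 0.317) and 0.31 ± 0.16 with Twist guides (0.675). Without control replicate 2 it was -0.14 with both pools and 0.53 with Twist guides (0.0347). Without control replicate 1 it was -0.55 with both pools (0.0167) and 0.12 with Twist guides. Each call of stg against control thus rested on which control library was kept.

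The remaining mitosis genes differed less. fzy and Bub1 had both libraries with both pools below the other 6, at 162 and 147 CPM for fzy, against 171 and 163 CPM in control, and at 84.1 and 84.7 CPM for Bub1, against 87.8 and 92.6 CPM in control. polo was highest in control and lay within 367 and 406 CPM. aur, the kinase Aurora A, stood at 71.1 and 71.3 CPM with both pools, against 87.0 and 71.2 CPM in control, so that 1 control library was at the both-pool level. BubR1, a spindle checkpoint kinase, and cort overlapped control in the both-pool libraries.

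Levels of the replication genes moved together across the 8 libraries. The median Pearson correlation of log2 CPM was 0.725 over 120 pairs of replication genes, with 97.5% of pairs above 0. It was 0.038 over 36 pairs of G1/S genes and 0.243 over 55 pairs of mitosis genes. All pairs share the same libraries and their scaling, so these values describe the 8 libraries only. The lower levels with both pools given above enter these correlations, and no such value was computed over pairs of all tested genes. Transcript length moved with the libraries too. The rank correlation of a gene's deviation with transcript length was 0.263 and 0.062 in the both-pool libraries, 0.288 and -0.0048 in the Twist guide libraries, -0.337 and -0.245 in the Snail guide libraries, and -0.293 and 0.263 in control. The median transcript was 2452 bases for the replication genes and 2060 for all tested genes. With a length trend removed per library, the replication median was -0.27 against Snail guides.

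A longer list held 28 other tested replication genes (polymerases, clamp loaders, GINS, chromatin assembly and nucleotide enzymes). Their median log2 fold change with both pools was -0.17 against Snail guides, -0.17 against Twist guides and -0.096 against control. With both pools edgeR called 2 of them lower against Snail guides (0.199% of all genes were called lower), 1 lower against Twist guides (0.548%) and 0 against control. Against control 5 were lower at an unadjusted p under 0.05, beside 7.93% of all genes, and DESeq2 called 0. DNApol-alpha73, a subunit of the primase-polymerase complex, stood at 42.0 and 32.9 CPM with both pools, against 54.5 and 55.2 CPM with Snail guides (-0.55 ± 0.11, edgeR adjusted p = 0.0431). Ts, thymidylate synthase, stood at 161 and 152 CPM with both pools, against 211 and 195 CPM with Snail guides (-0.37 ± 0.078, adjusted p = 0.0461). Cdc6, which loads the MCM helicase with ORC and Dup, stood at 18.8 and 15.6 CPM with both pools, against 27.4 and 26.2 CPM with Twist guides (-0.64 ± 0.12, adjusted p = 0.0325). The 21 other G1/S regulators, 53 other mitotic genes and 11 DNA damage checkpoint genes had 0 calls by edgeR in any comparison. With both pools against control, 2, 2 and 1 of them had an unadjusted p under 0.05, beside 16.5% of all genes, and DESeq2 called 0. With both pools against Snail guides 5, 8 and 4 had such a p, beside 18.4% of all genes. There DESeq2 called CycG, msps and rad50 higher, beside 2.38% of all genes called. Of the 28 other replication genes it called 3 there, with chif, an activator of the Cdc7 kinase, higher. The longest transcripts of CycG, msps, rad50 and chif were 4450, 7551, 4068 and 6624 bases, beside a median of 2060 for all tested genes. In the control libraries CycG stood at 855 and 959 CPM and msps at 478 and 694 CPM. The control levels of rad50 were 157 and 247 CPM, and those of chif 55.7 and 83.9 CPM. The part of transcript length in these calls was not tested. In the remaining comparisons DESeq2 called 2 genes of the 3 lists with Snail guides against control (tacc and msps, both lower), beside 1.8% of all genes. It called 1 of them in the interaction (msps, above 0), beside 0.902%. Of the other replication genes it called 2 with both pools against Twist guides (2.05% of all genes) and 1 in the interaction. With both pools against control the medians of the 3 lists were -0.012, -0.031 and 0.13. Of the 11 checkpoint genes, 8 were above 0 and 3 below in that comparison. The checkpoint median with both pools was 0.16 against Twist guides and 0.26 against Snail guides.

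Of the 9 hemocyte markers found, 6 were tested. Pxn, a peroxidase of basement membranes, was the 1 called by edgeR in a comparison with control, beside 1.57% of all genes. It stood at 84.1 and 73.9 CPM with both pools, against 105 and 100 CPM in control. Its log2 fold change was -0.37 ± 0.086, at the threshold (edgeR adjusted p = 0.0499). DESeq2 called 1 hemocyte marker with both pools against control (2.14% of all genes) and 1 with Snail guides against control (1.8%). The summed level of the hemocyte markers was 504 to 528 CPM with both pools, 538 to 543 CPM with Twist guides, 491 to 495 CPM with Snail guides and 550 to 643 CPM in control. Their part in the lower replication genes was not tested. Of the other lists, the muscle markers summed to 45.2 to 47.1 CPM with both pools, 50.4 to 51 CPM with Twist guides, 39.6 to 41.2 CPM with Snail guides and 44.4 to 57.7 CPM in control. Most of this was Mef2, at 35.2 to 52.4 CPM, while bap stood at 0 in all 8 libraries and Mhc did not exceed 0.092 CPM. The neuron and glia markers summed to 15.8 to 17.3 CPM with both pools, 12.6 to 13.1 CPM with Twist guides, 12.3 to 13.6 CPM with Snail guides and 11.9 to 14.7 CPM in control. Among them elav stood at 7.09 to 8.82 CPM and repo did not exceed 0.18 CPM. The germline markers summed to 152 to 153 CPM with both pools, 140 to 152 CPM with Twist guides, 141 to 148 CPM with Snail guides and 144.5 to 157 CPM in control. Most of this was aub, at 101 to 119 CPM, and osk, at 20.9 to 40.8 CPM, while vas did not exceed 0.65 CPM. The ovarian soma markers summed to 2.92 to 5.92 CPM with both pools, 3.66 to 4.92 CPM with Twist guides, 5.59 to 5.67 CPM with Snail guides and 2.66 to 5.11 CPM in control, and Cp36 did not exceed 0.083 CPM.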

How the data were processed

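Total RNA was sequenced as Illumina mRNA libraries from 8 S2R+ samples, 2 in each of 4 groups. The authors deposited raw read counts per gene symbol, not normalised. The submitters' processing notes name TopHat2, Bowtie2, HTSeq and DESeq without their roles. Not given in the sources used here are the genome build, the annotation, the strand setting and how reads were assigned.

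From these counts, edgeR 4.0.16 (R 4.3.3, limma 3.58.1) kept 8029 genes with filterByExpr at a minimum count of 10 and left out 6132 (99.94% of counts kept). TMM factors ranged from 0.983 to 1.02. The robust quasi-likelihood test was fitted to 4 group means over all 8 libraries, with 4 residual degrees of freedom, a median prior of 8.76 and a common biological coefficient of variation of 0.0792. It gave 7 contrasts, each adjusted by Benjamini-Hochberg over all 8029 genes at 0.05. The p-values set each difference between groups against a spread estimated over all 4 groups, not that of the compared libraries alone. Shares without overlap compare all libraries of both groups. CPM are counts divided by the library's total over the kept genes times its TMM factor, on the usual CPM scale. A count of 3, taken here as the upper limit for a count of 0, is 0.22 to 0.28 CPM. Counting error is the only error this covers.

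Gene symbols were matched to Ensembl 115 (BDGP6.54) for lengths and positions (10669 as current names, 3236 as older ones, 256 not). The authors' own build may differ. The cell cycle genes and all lists were chosen with earlier results of these data known. In each group the 4 genes with the smallest p in any comparison with control were named in full, and others were chosen after their values were seen. The scripts were run on simulated counts with known changes, most of them larger than the fold changes of the cell cycle genes. Each simulated gene had the same spread in all groups, so that run does not cover the wider spread of the control libraries. Alternatives were the DESeq2 1.42.0 test or its size factors, scaling by library size, dropping the filter or keeping genes at 1 CPM in 2 libraries, a replicate block, a fit of only the groups compared, removal of a length trend (lowess span 0.3, 7921 genes, 98.7%) and leaving out each library. Python 3.11.15 and matplotlib 3.10.9 made the figures.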

Additional observations from a re-analysis of the deposited data

How the results depend on the processing

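Among the fold changes of the named genes, 1005 values under the alternatives kept direction and side of the threshold, 75 passed the threshold where the reported one did not, and 40 changed sign. Of the medians, 300 moved by less than the spread between replicates and 33 by more. The comparisons of both pools with each single pool, and Orc5 and dup, were added to the alternatives after seeing the data. The labels link same-numbered libraries only by the number, and whether they were processed together is not given. The correlation of their deviations ranged from -0.147 to 0.142. With a replicate block edgeR called 0 of the 36 genes in each of the 7 comparisons. With 2 libraries a group the precision is limited. Causes of the changes below were not tested.

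The number of the 36 genes called by edgeR, 0 in all 7 comparisons, was 2 with both pools against control without a filter (2.95% of all genes), and 1 with Twist guides against Snail guides with only the groups compared (8.93%). With both pools against Twist guides it was 4 without a filter (3.51% of all genes), 1 by DESeq2 (2.05%) and 8 with only the groups compared (8.93%), where 1.05% were called in the reported fit. With both pools against Snail guides it was 1 with library size alone (0.772%), 7 without a filter (3.65%), 1 by DESeq2 (2.38%), 16 with only the groups compared (19.6%) and 2 with the length trend removed (1.37%), where 0.909% were called in the reported fit. For the interaction it was 2 without a filter (1.98%) and 1 with the length trend removed (0.473%). Leaving out each library in turn, the count ranged from 0 to 1 with Twist guides against control (6.17% of all genes without control replicate 2, where stg was the 1), from 0 to 6 with Snail guides against control and from 0 to 7 with both pools against control. It ranged from 0 to 9 with both pools against Twist guides, from 0 to 14 with both pools against Snail guides and from 0 to 7 for the interaction. Each count above 0 came from leaving out a control library.

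Of the group medians, that of the mitosis genes with Twist guides against Snail guides was -0.023 with the length trend removed. With library size alone the mitosis median was -0.18 with both pools against Twist guides and -0.11 in the interaction. The G1/S median of the interaction was -0.092 with the length trend removed. Leaving out each library in turn, the replication median ranged from -0.25 to -0.082 with both pools against control, from -0.36 to -0.19 against Snail guides and from -0.44 to -0.28 in the interaction. The G1/S median ranged from -0.13 to 0.066 with Snail guides against control, from -0.19 to -0.011 with both pools against control and from -0.10 to 0.025 with Twist guides against Snail guides. It ranged from -0.10 to -0.027 with both pools against Twist guides, from -0.085 to -0.011 with both pools against Snail guides and from -0.11 to -0.019 in the interaction. The mitosis median ranged from -0.072 to -3.1e-05 with Twist guides against control, from -0.081 to -0.0069 with Snail guides against control and from -0.15 to -0.12 with both pools against control. It ranged from -0.032 to 0.017 with Twist guides against Snail guides and from -0.11 to -0.024 in the interaction.

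Fold changes near 0 changed sign. With Twist guides against control, library size alone, no filter and only the groups compared gave 0.0071, 0.0013 and 0.00016 for Rbf, and 0.011, 0.0042 and 0.0031 for E2f. CycA with Snail guides against control was 0.0054 with the length trend removed, and Orc1 with both pools against control was -0.0072 with library size alone. Leaving out each library in turn, the log2 fold change with Twist guides against control ranged from -0.22 to 0.11 for dap, from -0.049 to 0.034 for Rbf, from -0.032 to 0.024 for E2f and from -0.12 to 0.061 for Mcm7. It ranged from -0.096 to 0.045 for Mcm3, from -0.074 to 0.11 for Mcm5 and from -0.080 to 0.023 for Orc5. With Snail guides against control it ranged from -0.21 to 0.098 for dap, from -0.016 to 0.039 for Rbf, from -0.098 to 0.071 for Mcm7 and from -0.031 to 0.14 for Mcm5. It ranged from -0.058 to 0.041 for CycA, from -0.18 to 0.23 for stg and from -0.013 to 0.22 for dup. It ranged from -0.049 to 0.073 for Orc1 with both pools against control, and, with both pools against Snail guides, from -0.077 to 0.067 for E2f and from -0.14 to 0.036 for CycB3.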
